A study of Homo sapiens with 12 samples.

Results

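The genes of MHC class I antigen presentation and of the immunoproteasome were followed over 12 arrays of 3 head and neck cancer lines. The 10 genes were the heavy chains HLA-B, HLA-C, HLA-E and HLA-F, the light chain B2M, the peptide transporter genes TAP1 and TAP2, the loading factor TAPBP, and the proteasome subunits PSMB8 and PSMB9. A probe set, the group of probes that reads 1 transcript, was taken when 1 of these genes was its only symbol in the platform annotation. That gave 23 probe sets of 22215 that are not controls, for 10 of 11963 named genes.

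MHC class I molecules show short peptides from proteins made inside the cell to CD8+ T cells and to natural killer cells. The proteasome cuts proteins into peptides, the TAP1 and TAP2 transporter carries them into the endoplasmic reticulum, and TAPBP (tapasin) holds the transporter beside an empty heavy chain and its B2M partner until a peptide is bound. In the immunoproteasome, PSMB8 and PSMB9 take the place of catalytic subunits of the constitutive core. Interferons are known to raise the genes of this pathway, and tumours of squamous epithelium, head and neck included, are known to lose parts of it.

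The 6 groups were, per the labels, the invasion subline and the parent cells of the line HNC-Detroit, of Fadu (from a hypopharyngeal squamous carcinoma) and of OECM1 (an oral squamous carcinoma line), with 2 arrays in each group. An invasion subline was collected after passage through Matrigel, a basement membrane extract, and no genetic change or drug was named for any group. The sources used here name no clone for a subline, do not say which Detroit line was grown, and do not tell whether duplicates were grown as separate cultures. The p-values below thus cover no more than the spread among these 12 arrays, and that spread may be technical.

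The start regions of the genes on which the results below turn are shown first. HLA-B, HLA-C, PSMB8 and PSMB9 each had a probe set that was lower in the OECM1 parent and passed the test below. For HLA-C that held against the Fadu parent only, and for PSMB8 against the Detroit parent only. B2M pairs with every heavy chain, and TAP1 lies head to head with PSMB9. Each start region is the 250 bases before the first transcribed base in RefSeq on GRCh38.p14, written 5′ to 3′ on the gene's own strand. Capitals mark matches, on either strand, to GAAANNGAAA, to the NF-kB consensus, to the CCAAT box and to the CRE half-site TGACG. GAAANNGAAA is a strict form of the interferon response element bound by IRF factors, and is called the IRF element below. PSMB8 has 2 entries in the table, and the TAP1 entry printed is the one whose first base lies 488 bases from that of PSMB9 on the opposite strand.
HLA-B promoter window, chr6:31357180-31357429, minus strand: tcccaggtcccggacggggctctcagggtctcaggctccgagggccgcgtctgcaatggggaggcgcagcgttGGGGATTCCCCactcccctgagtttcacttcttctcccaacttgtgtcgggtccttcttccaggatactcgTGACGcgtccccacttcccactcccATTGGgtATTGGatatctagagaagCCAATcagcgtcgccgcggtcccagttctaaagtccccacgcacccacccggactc
HLA-C promoter window, chr6:31272093-31272342, minus strand: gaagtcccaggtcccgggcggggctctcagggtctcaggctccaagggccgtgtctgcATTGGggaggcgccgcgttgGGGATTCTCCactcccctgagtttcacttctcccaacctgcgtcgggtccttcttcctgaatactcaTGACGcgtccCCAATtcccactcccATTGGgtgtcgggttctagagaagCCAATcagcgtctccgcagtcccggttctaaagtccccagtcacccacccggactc
B2M promoter window, chr15:44711267-44711516, plus strand: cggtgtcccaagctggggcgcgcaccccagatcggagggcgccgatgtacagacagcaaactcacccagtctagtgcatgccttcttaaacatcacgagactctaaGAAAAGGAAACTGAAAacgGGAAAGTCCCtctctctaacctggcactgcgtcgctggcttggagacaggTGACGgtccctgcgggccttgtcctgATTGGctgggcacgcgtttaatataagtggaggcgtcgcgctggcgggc
TAP1 promoter window, chr6:32853705-32853954, minus strand: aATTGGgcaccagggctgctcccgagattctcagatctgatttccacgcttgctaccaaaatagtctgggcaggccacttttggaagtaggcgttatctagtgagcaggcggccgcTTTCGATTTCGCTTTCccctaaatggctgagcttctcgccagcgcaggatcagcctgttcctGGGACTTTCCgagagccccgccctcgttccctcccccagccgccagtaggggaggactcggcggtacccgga
PSMB9 promoter window, chr6:32853942-32854191, plus strand: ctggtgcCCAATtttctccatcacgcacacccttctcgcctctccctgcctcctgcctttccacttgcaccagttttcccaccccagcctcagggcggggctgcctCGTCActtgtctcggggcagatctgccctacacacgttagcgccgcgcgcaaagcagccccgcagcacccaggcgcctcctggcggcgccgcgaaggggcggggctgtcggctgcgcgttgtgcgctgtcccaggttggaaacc
PSMB8 promoter window, chr6:32844680-32844929, minus strand: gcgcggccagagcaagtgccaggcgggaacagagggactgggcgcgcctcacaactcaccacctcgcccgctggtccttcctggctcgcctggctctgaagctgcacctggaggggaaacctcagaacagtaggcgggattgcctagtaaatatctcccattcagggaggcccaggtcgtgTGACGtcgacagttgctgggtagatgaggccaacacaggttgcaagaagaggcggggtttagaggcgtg
PSMB8 promoter window, chr6:32844048-32844297, minus strand: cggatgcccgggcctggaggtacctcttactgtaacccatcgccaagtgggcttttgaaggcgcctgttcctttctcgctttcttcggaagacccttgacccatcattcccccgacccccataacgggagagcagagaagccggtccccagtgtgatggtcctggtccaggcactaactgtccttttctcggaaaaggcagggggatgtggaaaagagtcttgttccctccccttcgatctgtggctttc

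The table held windows for 9 of the 10 genes, in 11 entries. The IRF element, which lies in 3.02% of all 35116 windows of this length, was found for HLA-F, B2M, TAP1, TAP2 and TAPBP. The NF-kB consensus, in 9.96% of all windows, was found for HLA-B, HLA-C, B2M, TAP1 and TAPBP. The CCAAT box, in 32.0% of all windows, was found for HLA-B, HLA-C, HLA-F, B2M, TAP1 and PSMB9, and TGACG, in 21.2%, for HLA-B, HLA-C, B2M, TAP2, PSMB8 and PSMB9. The TAP1 and PSMB9 windows overlap at their far ends, and their CCAAT matches are the same bases read on opposite strands. Matches to different motifs did not overlap, while 2 matches to the IRF element overlapped each other in B2M, in TAP1 and in TAPBP. In B2M these span the bases from -144 to -129, counted from the first transcribed base, and the NF-kB match follows at -125 to -116. In TAP1 the 2 IRF matches span -134 to -119, and the NF-kB match lies at -72 to -63. The PSMB9 window held a CCAAT box and a half-site, and 1 PSMB8 window held a half-site. The letters of these motifs are not in the other PSMB8 window, nor in the other TAP1 window, which is not printed. A match is a run of letters and no evidence of binding. Sites that depart from these letters were not searched for, so a window without a match may still hold such a site.

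All values are log2 expression values made with RMA by the authors, so a difference of 1 is a doubling on the array scale, and levels of different probe sets cannot be compared with each other. RMA compresses low values, which understates the fold changes of dim probe sets. Array medians lay between 4.92 and 5.06. A probe set was tested if at least 2 arrays exceeded 4.52, the 40th percentile of all values, which kept 15124 probe sets and 21 of the 23 followed here. The other two, TAP2 208428_at with 3.34 to 3.65 and TAPBP 210294_at with 3.50 to 4.34, were dim on all 12 arrays. The epithelial markers fixed for the cell identity check were above that limit in every group (7 of 7 genes measured, with summed levels of 62.6 to 73.1 per array). Of 13 leukocyte markers, 5 to 7 were under the limit on both arrays of a group, none exceeded 6.12 on any array, and their summed level lay between 53.8 and 58.3. Of 6 endothelial markers, 4 were under the limit on both arrays of each group and none exceeded 5.63. Of 9 fibroblast markers, 3 or 4 were under it, and their summed level lay between 37.1 and 41.1 on 11 arrays.

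The arrays labelled Detroit invasion subline stood apart from their labelled line. Across the 15124 probe sets, which are not independent replicates, the correlation of their mean with that of the Fadu parent was r = 0.965, against r = 0.893 with the Detroit parent. The Detroit and Fadu parent means correlated at r = 0.913. For that reason these arrays were also set against the Fadu parent, and the parent comparisons were repeated without them.

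The duplicates of the parent cells disagreed on the class I genes. Of the 15 tested heavy chain and B2M probe sets, replicate 1 of the invasion subline was the higher array in 10 for Detroit as labelled, in 9 for Fadu and in 12 for OECM1, with median differences of 0.17, 0.05 and 0.20. In the parent cells it was the higher array in 15, 15 and 14 of the 15, with medians of 1.01, 0.55 and 1.14. Over all probe sets tested, the median difference between duplicates lay between -0.05 and 0.09 in the 6 groups. The root mean square difference over the 21 probe sets was 1.03 in the Detroit parent and 1.12 in the OECM1 parent, against 0.583 and 0.744 over all probe sets. PSMB8 and PSMB9 differed little between those same duplicates, at -0.13 and -0.08 in the Detroit parent and at 0.03 and -0.03 in the OECM1 parent. On the arrays labelled Detroit invasion subline, PSMB8 and PSMB9 differed by 0.61 and 0.82 between duplicates. The root mean square difference there was 0.73 over the 21 probe sets and 0.87 over all probe sets, the latter the highest of the 6 groups. The difference between 3′ and 5′ probes of ACTB, a sign of RNA integrity, was -0.03 and -0.10 on the Detroit parent arrays, 0.55 and -0.23 on the Fadu parent arrays and 0.87 and 0.04 on the OECM1 parent arrays. In the invasion sublines the ACTB difference was -0.28 and 0.80 for Detroit as labelled, -0.05 and 0.40 for Fadu and 0.06 and 0.63 for OECM1. On Detroit parent replicate 1 the summed level of the 9 fibroblast markers was 43.8, the highest of the 12 arrays, against 40.9 on replicate 2. Among them COL1A2, a collagen chain, read 8.5 and 5.35 on the Detroit parent arrays and 4.24 to 5.07 on the other 10, while COL3A1 and LUM stayed at most at 3.68 and 2.94 on all 12. With the ACTB difference as a covariate, the median log2 fold change of subline over parent was -0.46 for Detroit as labelled (-0.34 without it). That median over the 21 probe sets was -1.42 for OECM1 over Detroit parents (-0.98 without it) and -0.12 for Fadu over Detroit parents (-0.04 without it). The part of the ACTB difference in the gap between duplicates was not tested. That of the fibroblast markers was not tested there or in the Detroit comparisons.

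**Figure D1:**
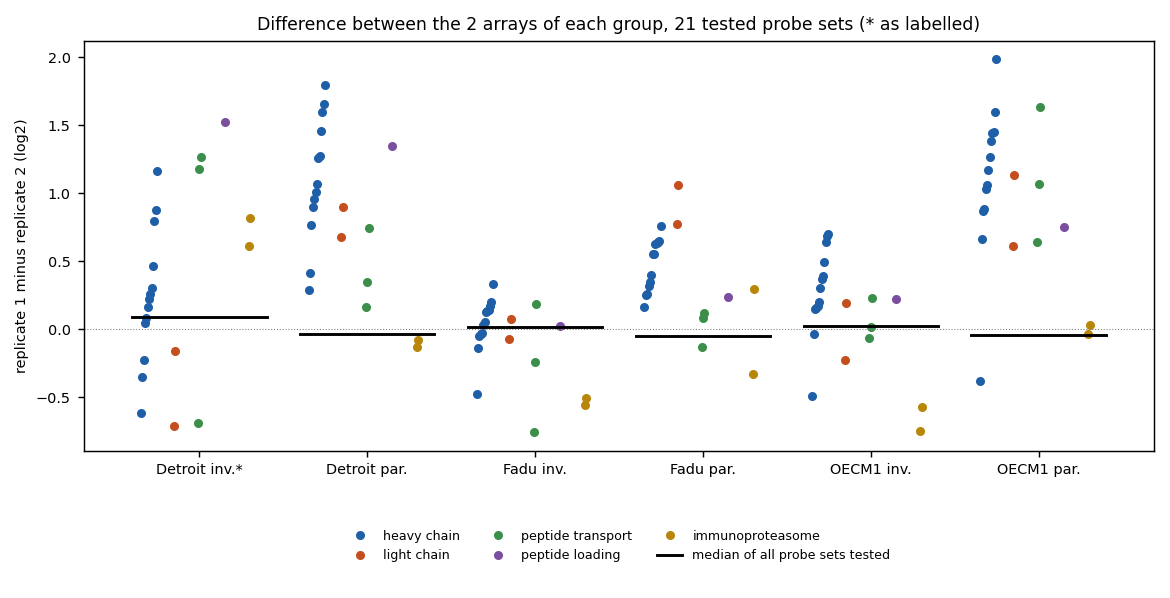
Difference between replicate 1 and replicate 2 of each group (log2, vertical axis) for the 21 tested probe sets, 1 point each, coloured by role; black bars are the median over all 15124 probe sets tested. Heavy chain and B2M points lie above 0 in the Detroit and Fadu parents and, with 1 exception, in the OECM1 parent, while the immunoproteasome points of the Detroit and OECM1 parents lie near 0.

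The parent cells were compared first, since each subline is set against the parent of its labelled line further below. The OECM1 parent had lower immunoproteasome and HLA-B values than both other parents. Against the Detroit parent, 4 of the 21 probe sets fell at an adjusted p under 0.05 and none rose, where 3.29% of all 15124 probe sets were called in either direction. Against the Fadu parent, 3 of 21 fell and none rose, where 2.43% of all were called. Without both arrays labelled Detroit invasion subline these counts were 5 and 4. Over all probe sets, the counts called ran from 89 to 765 and from 48 to 654 under the alternatives that kept both arrays of each parent. The counts of 5 and 4 alone thus show no firmer difference. Between the Fadu and Detroit parents, 0 of 21 were called by limma, with 1 at an unadjusted p under 0.05, where 2.29% of all were called. The median log2 fold change of the 21 probe sets was -0.98 for OECM1 over Detroit, -1.10 for OECM1 over Fadu and -0.04 for Fadu over Detroit, and that of all probe sets was -0.05, -0.03 and -0.02. In RNA of whole cultures, fewer cells that express a gene and less RNA per cell cannot be told apart.

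PSMB9, the immunoproteasome subunit that takes the place of PSMB6, read 4.69 and 4.72 on the OECM1 parent arrays. It read 7.71 and 7.41 on the Fadu parent arrays and 7.17 and 7.25 on the Detroit parent arrays. The OECM1 values lay close to the limit of dim probe sets and below every array of the other parents. The log2 fold change was -2.50 for OECM1 over Detroit (SE 0.360, adjusted p = 0.00412), a 5.66-fold lower value. For OECM1 over Fadu it was -2.85 (SE 0.360, adjusted p = 0.00261), 7.22-fold lower. Fadu over Detroit gave 0.35, with a 95% interval of -0.44 to 1.15. The fall of PSMB9 in OECM1 against either parent passed the test in each of the 12 fits that left out 1 array.

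PSMB8, the immunoproteasome subunit that takes the place of PSMB5, read 6.37 and 6.34 on the OECM1 parent arrays, against 8.31 and 8.45 on the Detroit parent arrays. The duplicates nearly coincided and the groups did not overlap. Its log2 fold change was -2.03 (SE 0.355, adjusted p = 0.0111), a 4.08-fold lower value. Against the Fadu parent arrays, at 7.73 and 8.06, the difference of -1.54 did not pass (adjusted p = 0.0506). Without either Detroit parent array the first call was lost, at adjusted p = 0.0554 and 0.0681, and so it was without OECM1 parent replicate 1, at 0.0616.

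HLA-B, a classical heavy chain, has 3 probe sets. By 209140_x_at it read 9.07 and 7.48 on the OECM1 parent arrays, against 11.36 and 10.81 on the Fadu parent arrays and 11.78 and 10.33 on the Detroit parent arrays. Both OECM1 arrays lay below all 4 others, although the 2 OECM1 arrays themselves were 1.59 apart. The log2 fold change was -2.78 for OECM1 over Detroit (SE 0.547, adjusted p = 0.0202) and -2.81 for OECM1 over Fadu (adjusted p = 0.0228). By 211911_x_at HLA-B read 9.31 and 8.25 on the OECM1 parent arrays, against 11.45 and 10.18 on the Detroit parent arrays, a fold change of -2.04 (SE 0.483, adjusted p = 0.0476). By 208729_x_at, at 9.48 and 8.21 against 11.32 and 10.42, the difference of nearly the same size, -2.03, had an adjusted p of 0.0536. For OECM1 over Fadu, 211911_x_at gave -1.61 (adjusted p = 0.13) and 208729_x_at -1.16 (adjusted p = 0.317). Both were smaller than the value by 209140_x_at, and neither passed.

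The HLA-B calls were lost when single parent arrays were left out. By 209140_x_at the fold change over Detroit was -2.05 when Detroit parent replicate 1 was left out (adjusted p = 0.137) and -1.98 when OECM1 parent replicate 2 was (adjusted p = 0.075). The fold change over Fadu was not called without either Fadu parent array or without OECM1 parent replicate 2, with adjusted p-values of 0.208, 0.0751 and 0.104. With 211911_x_at the call was lost in 9 of the 12 fits that left out 1 array. Over both comparisons, the count of called probe sets fell to 1 without Detroit parent replicate 1 (against the Detroit parent) and to 1 without Fadu parent replicate 1, Fadu parent replicate 2 or OECM1 parent replicate 2 (against the Fadu parent).

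HLA-C, the other classical heavy chain followed here, has 4 probe sets that did not move alike. By 216526_x_at it read 9.56 and 8.12 on the OECM1 parent arrays, against 11.83 and 11.19 on the Fadu parent arrays. The fold change was -2.67 (SE 0.562, adjusted p = 0.0340), and the call was lost in 7 of the 12 fits that left out 1 array. The other three, 208812_x_at, 211799_x_at and 214459_x_at, gave -0.90, -1.11 and -0.83 for the same comparison, and none passed. On the Detroit parent arrays 216526_x_at read 11.02 and 9.22, so that its value for Fadu over Detroit was 1.39 (adjusted p = 0.279), whereas the other three gave -0.07, -0.43 and -0.04.

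HLA-B and HLA-C vary more between people than nearly all other human genes, while a probe has 1 fixed sequence, and 11 of the 23 probe sets carry the suffix _x_at, which the manufacturer gives to probe sets with probes shared by other transcripts. Whether the cell lines' alleles match the probes equally was not tested, and values of HLA-B and HLA-C probe sets may include the signal of other class I genes.

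HLA-E, a heavy chain that presents leader peptides of other class I molecules to natural killer cells, was not called in any comparison of parents. By 200905_x_at it read 9.17 and 8.28 on the OECM1 parent arrays, against 9.90 and 9.74 on the Fadu parent arrays, a difference of -1.10 (adjusted p = 0.235). HLA-F, another non-classical heavy chain, read 8.23 and 7.20 by 221875_x_at on the OECM1 parent arrays, against 9.77 and 8.77 on the Detroit parent arrays. Its difference of -1.55 did not pass (adjusted p = 0.115). The third HLA-F probe set, 221978_at, stayed between 3.97 and 4.71 on all 12 arrays, at the limit of dim probe sets, and carries little information.

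B2M, the light chain that pairs with the class I heavy chains, read 11.11 and 10.50 by 216231_s_at on the OECM1 parent arrays. The Fadu parent arrays read 12.37 and 11.60 and the Detroit parent arrays 12.20 and 11.53. All 4 lay above both OECM1 arrays, but the differences of -1.18 (adjusted p = 0.0914) and -1.06 (adjusted p = 0.109) did not pass. The second B2M probe set, 201891_s_at, gave -0.91 and -0.95, also short of the threshold.

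None of the transporter and loading probe sets was called between parents. TAP1, the transporter chain encoded beside PSMB9, read 8.04 and 6.97 on the OECM1 parent arrays, against 7.87 and 7.75 on the Fadu parent arrays and 7.16 and 6.99 on the Detroit parent arrays. Its differences were -0.31 over Fadu (95% interval -1.31 to 0.70) and 0.43 over Detroit (-0.57 to 1.44). These intervals do not reach the -2.85 and -2.50 of PSMB9. TAP2, its partner, gave by 204769_s_at 0.75 over Fadu and 0.04 over Detroit. By 204770_at it gave -0.08 and 0.91, so the TAP2 probe sets did not move alike. TAPBP by 208829_at gave -0.94 and -0.18, and none of these passed.

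**Figure D2:**
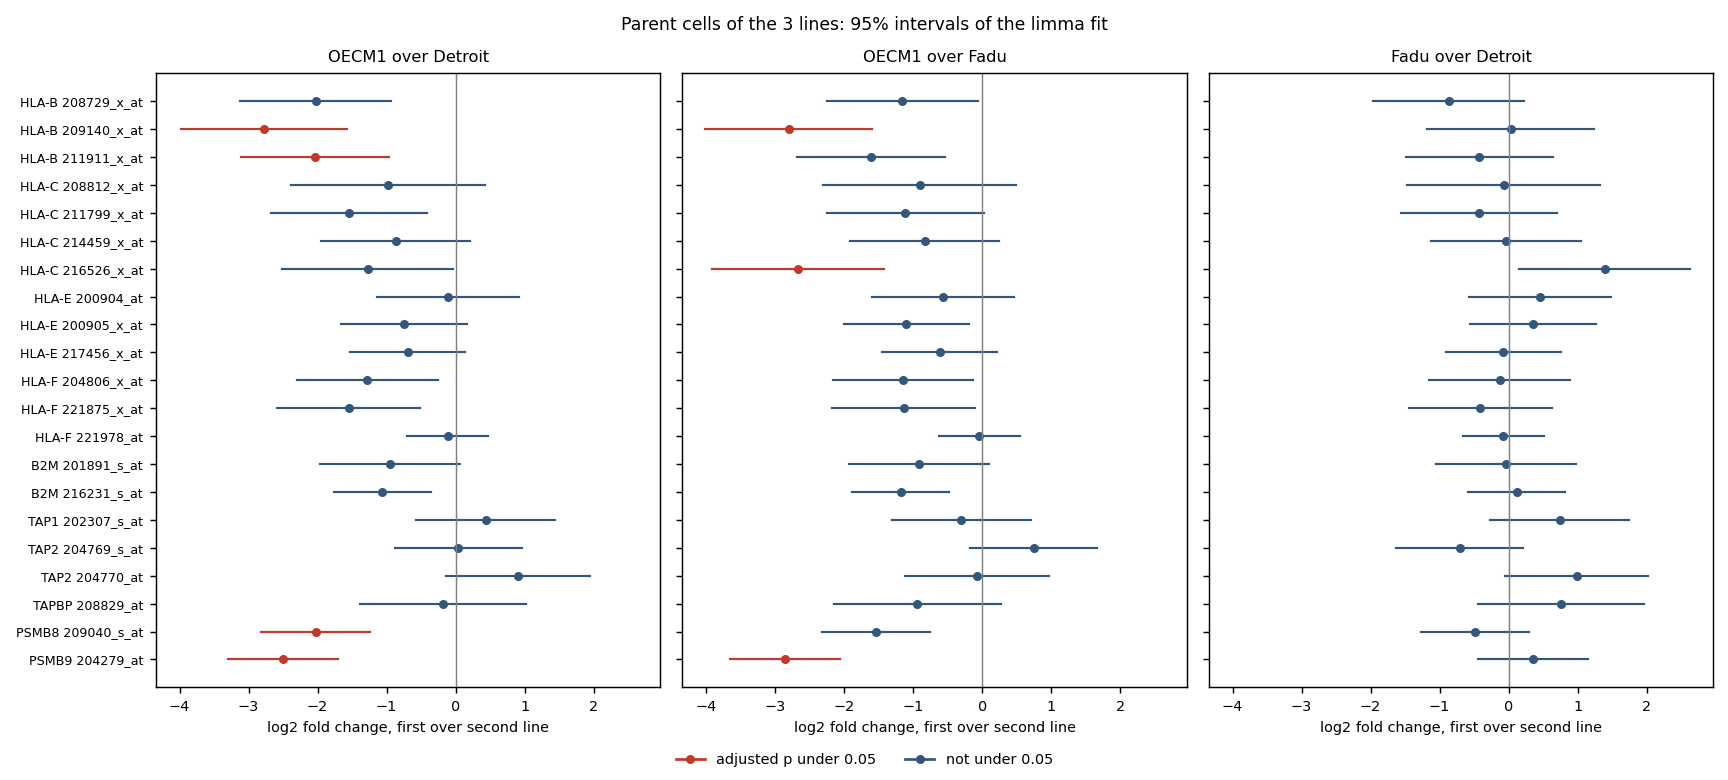
Log2 fold change between parent cells with 95% intervals from the limma fit (horizontal axis) for the 21 tested probe sets, in panels for OECM1 over Detroit, OECM1 over Fadu and Fadu over Detroit; red marks an adjusted p under 0.05. The red points are 4, 3 and 0, all of them below 0, and the TAP1 and TAP2 points of the OECM1 panels lie between -0.31 and 0.91 beside -2.50 and -2.85 for PSMB9.

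The comparison of each invasion subline with the parent of its labelled line asks which of these genes accompanied selection through Matrigel, if the labels hold. PSMB9 was the only one of the 21 probe sets called in any line, and it was lower on the arrays labelled Detroit invasion subline than in the Detroit parent. There, 1 of 21 was called, where 3.02% of all probe sets were called, and a single call is near that share. In Fadu and in OECM1, 0 of 21 were called by limma, with 0 at an unadjusted p under 0.05 in each, where 0.0198% and 0.00661% of all probe sets were called. The test of a difference of the effect between OECM1 and Fadu called 0 of 21, again with 0 at an unadjusted p under 0.05, and 0% of all probe sets. An F test of a difference between the 3 lines called 0 of 21, with 2 at an unadjusted p under 0.05, and 0.602% of all.

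PSMB9 read 5.80 and 4.98 on the arrays labelled Detroit invasion subline, against 7.17 and 7.25 on the Detroit parent arrays. The groups were separated by more than the spread of either, with means of 5.39 ± 0.578 and 7.21 ± 0.0586 (SD, n = 2 each). The log2 fold change was -1.82 (SE 0.360, adjusted p = 0.0223), a 3.52-fold lower value. Without Detroit invasion subline replicate 2, Detroit parent replicate 1 or Detroit parent replicate 2 the value was -1.41, -1.86 and -1.77, and the adjusted p was 0.124, 0.111 and 0.0972. A fit to the 4 Detroit arrays alone gave an adjusted p of 0.195, and array weights gave 0.0616. An exact permutation test of 2 arrays against 2 cannot go below a two-sided p of 0.333.

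The Fadu arrays, which the arrays labelled Detroit invasion subline resembled over all probe sets, had high PSMB9 values. It read 7.12 and 7.63 in the Fadu invasion subline, against 7.71 and 7.41 in the Fadu parent, with a difference of -0.18 (95% interval -0.98 to 0.62). The arrays labelled Detroit invasion subline lay below the Fadu parent by 2.17 on average, a log2 fold change of -2.17 (SE 0.360, unadjusted p = 9.44e-05, rank 8 of 15124), which did not pass (adjusted p = 0.178). In that comparison 0 of 21 probe sets were called, with 2 at an unadjusted p under 0.05, and 0% of all were called. Without Detroit invasion subline replicate 1 the count was 1 of 21.

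In OECM1, PSMB9 read 4.93 and 5.68 in the invasion subline, against 4.69 and 4.72 in the parent. Both subline arrays lay above both parent arrays, and the difference of 0.60 (95% interval -0.19 to 1.40) did not pass. The means were 5.31 ± 0.528 in the OECM1 invasion subline and 4.71 ± 0.0242 in the OECM1 parent, and in Fadu 7.38 ± 0.359 for the invasion subline and 7.56 ± 0.210 for the parent cells (SD, n = 2 each). From the highest mean to the lowest, the order was Fadu parent, Fadu invasion subline, Detroit parent, Detroit invasion subline as labelled, OECM1 invasion subline and OECM1 parent. Ranges of neighbours in that order overlapped except between the Detroit parent and the group labelled Detroit invasion subline, and between the OECM1 invasion subline and its parent.

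The PSMB8 differences had the signs of those of PSMB9 in each line, and none passed. PSMB8 read 7.35 and 6.74 on the arrays labelled Detroit invasion subline, against 8.31 and 8.45 on the Detroit parent arrays. The groups did not overlap, and the difference of -1.34 (SE 0.355, adjusted p = 0.0757) did not pass. In Fadu it read 7.0 and 7.56 in the invasion subline, against 7.73 and 8.06 in the parent, again without overlap, with a difference of -0.61 (95% interval -1.39 to 0.17). In OECM1 it read 6.32 and 6.89 in the invasion subline, against 6.37 and 6.34 in the parent, where the groups overlapped and the difference was 0.25 (95% interval -0.54 to 1.03).

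**Figure D3:**
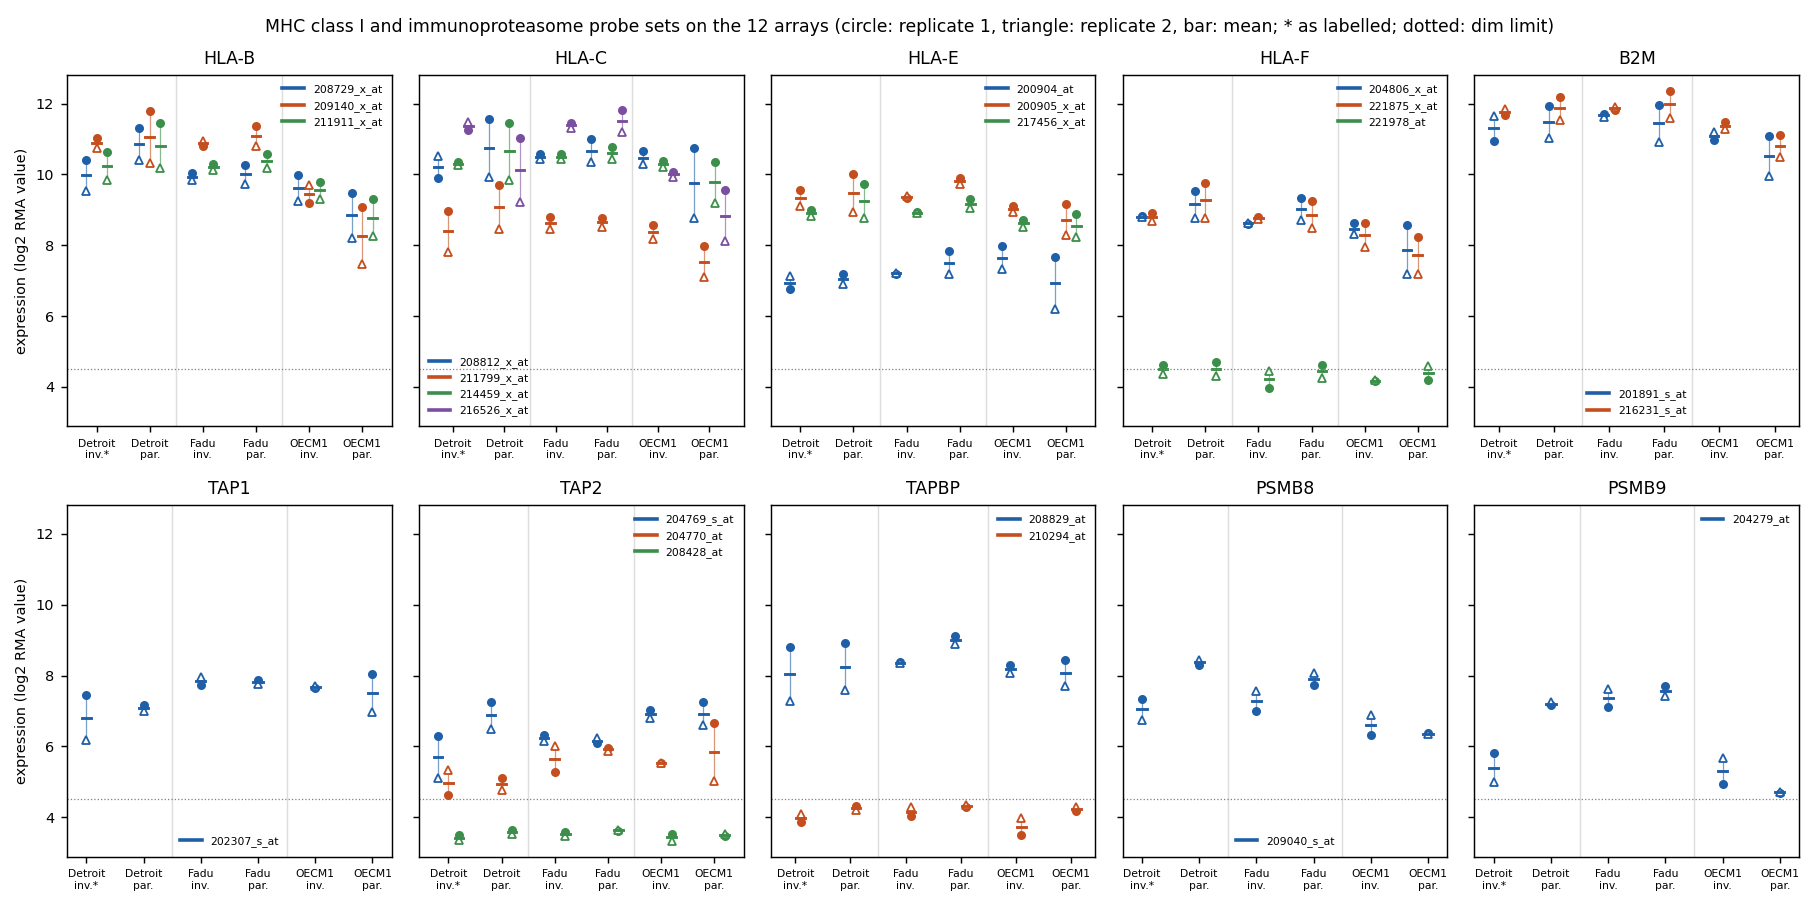
Log2 RMA value (vertical axis) of all 23 probe sets on the 12 arrays, 1 panel per gene and 1 colour per probe set, with groups along the horizontal axis; circles are replicate 1, triangles replicate 2, bars the mean of 2 arrays and the dotted line the limit of 4.52. PSMB9 sits at 4.69 to 5.80 on the 4 OECM1 arrays and the 2 labelled Detroit invasion subline, and at 7.12 to 7.71 on the other 6.

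None of the 13 tested heavy chain probe sets was called in a subline. HLA-B by 209140_x_at read 9.20 and 9.70 in the OECM1 invasion subline, against 9.07 and 7.48 in the OECM1 parent. Both subline arrays exceeded both parent arrays, and the difference was 1.17 with a 95% interval of -0.03 to 2.38 (unadjusted p = 0.0554). HLA-C by 216526_x_at read 10.08 and 9.93 in the OECM1 invasion subline, against 9.56 and 8.12 in the parent, a difference of 1.16 (95% interval -0.08 to 2.40). The same HLA-C probe set was the exception among the arrays labelled Detroit invasion subline, at 11.25 and 11.48 against 11.02 and 9.22 in the Detroit parent. Its difference of 1.24 did not pass (adjusted p = 0.317), while the other three HLA-C probe sets gave -0.55, -0.67 and -0.34.

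In Fadu no heavy chain probe set reached an unadjusted p under 0.05. HLA-B by 209140_x_at read 10.81 and 10.95 in the invasion subline, against 11.36 and 10.81 in the parent, a difference of -0.20 (95% interval -1.41 to 1.00). Over the 13 heavy chain probe sets the Fadu differences ran from -0.46 to -0.01. HLA-E by 200905_x_at had the lowest of them, at 9.33 and 9.38 in the invasion subline, against 9.90 and 9.74 in the parent, and its 95% interval of -1.37 to 0.45 includes 0.

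B2M, TAP1, TAP2 and TAPBP were not called in any subline. B2M by 216231_s_at read 11.48 and 11.28 in the OECM1 invasion subline, against 11.11 and 10.50 in the parent, a difference of 0.57 (95% interval -0.13 to 1.28) between arrays that did not overlap. It read 11.68 and 11.84 on the arrays labelled Detroit invasion subline, against 12.20 and 11.53 in the Detroit parent, and 11.83 and 11.90 in the Fadu invasion subline, against 12.37 and 11.60 in the Fadu parent, with overlap in both. TAP1 gave -0.26 for Detroit as labelled, 0.03 for Fadu and 0.17 for OECM1. TAP2 by 204769_s_at read 6.28 and 5.10 on the arrays labelled Detroit invasion subline, against 7.25 and 6.50 in the Detroit parent. That difference of -1.19 did not pass (adjusted p = 0.179), and the second TAP2 probe set, 204770_at, gave 0.04. TAPBP gave -0.21, -0.66 and 0.11 in the order Detroit as labelled, Fadu and OECM1.

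Taken over the 21 probe sets, the signs of the differences ran one way in each line. In OECM1, 18 were positive, with a median of 0.56. In Fadu 18 were negative, with a median of -0.18, and for Detroit as labelled 19 were negative, with a median of -0.34. The medians over all probe sets were 0.00, -0.01 and -0.01. The 21 probe sets are not independent of each other, because near-identical genes share probes and all are read on the same arrays.

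These medians turned on 1 parent array in each line. Without OECM1 parent replicate 2 the OECM1 median was -0.02, with 9 of 21 positive. Without Fadu parent replicate 1 the Fadu median was 0.03, with 12 of 21 positive, and without Detroit parent replicate 1 the Detroit median was 0.14, with 15 of 21 positive. Leaving out the other parent array gave medians of 1.08, -0.40 and -0.88.

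The probe sets whose subline arrays both lay beyond both parent arrays were also counted. In OECM1, 6 of 21 were higher and 0 lower, against 12.7% and 12% of all probe sets. In Fadu, 0 were higher and 5 lower, against 15.5% and 17%. For Detroit as labelled, 1 was higher and 4 lower, against 19.8% and 18.8%.

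**Figure D4:**
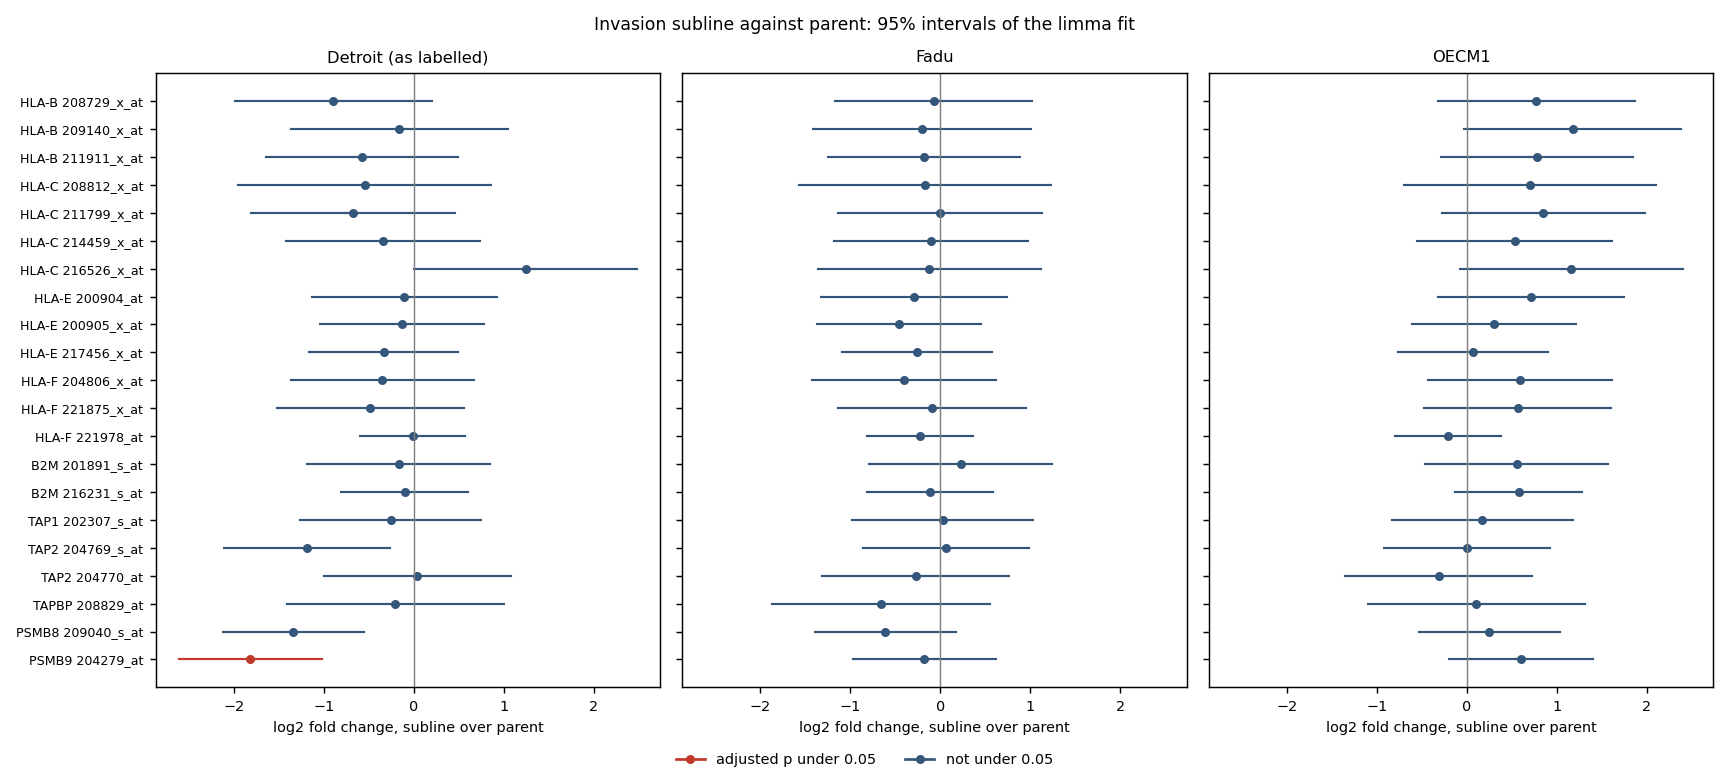
Log2 fold change of invasion subline over parent with 95% intervals from the limma fit (horizontal axis) for the 21 tested probe sets in the 3 lines; red marks an adjusted p under 0.05. PSMB9 for Detroit as labelled, at -1.82, is the single red point, and 18 of the 21 OECM1 points lie above 0 with intervals that include it.

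Other genes of the pathway were read from 5 lists, each gene by its brightest probe set. Of 14 genes listed for peptide supply and loading, 12 were measured and tested. ERAP2, the aminopeptidase that trims peptides in the endoplasmic reticulum, was the one with the largest differences. It read 3.54 and 2.89 on the OECM1 parent arrays, against 8.24 and 7.05 on the Fadu parent arrays and 8.87 and 7.30 on the Detroit parent arrays. The OECM1 values lay under the limit of dim probe sets. Its log2 fold change was -4.87 for OECM1 over Detroit (SE 0.592, adjusted p = 0.00138) and -4.43 for OECM1 over Fadu (adjusted p = 0.00364), and both passed in every one of 12 fits that left out 1 array.

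ERAP2 was also lower on the arrays labelled Detroit invasion subline, at 6.0 and 4.97 against 8.87 and 7.30 in the Detroit parent. That fall of 2.61 (a log2 fold change of -2.61, adjusted p = 0.041) was lost in 7 of the 12 fits that left out 1 array. Without Detroit parent replicate 1 it was -1.82 (adjusted p = 0.259). In Fadu and OECM1 the ERAP2 differences between subline and parent were -0.17 and -0.08. PSME1, a subunit of the cap that opens the proteasome, read 8.66 and 9.14 on the OECM1 parent arrays, against 10.35 and 10.22 on the Fadu parent arrays. It fell by 1.39 (a log2 fold change of -1.39, adjusted p = 0.0419), a call lost in 9 of 12 such fits. The list as a whole had 1 gene lower and 11 not called for Detroit as labelled and for OECM1 over Detroit. Of all probe sets, 3.02% and 3.29% were called there. For OECM1 over Fadu 2 were lower and 10 not called, where 2.43% of all were called. In that order, 2, 7 and 5 of the 12 had an unadjusted limma p under 0.05, against 2368, 2455 and 2155 of all 15124. In the Fadu subline, in the OECM1 subline and between the Fadu and Detroit parents, 0 of 12 were called by limma. There, 0, 2 and 2 had an unadjusted p under 0.05. The list's medians lay between -0.47 and 0.22 in these 6 comparisons.

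The constitutive proteasome core cuts proteins in all cells. Of 13 tested genes of 14 listed, 0 were called by limma for OECM1 over either parent, with 0 at an unadjusted p under 0.05 over Detroit and 1 over Fadu, and the list's median was -0.14 over Detroit and -0.26 over Fadu. For Detroit as labelled and for Fadu over Detroit 1 of the 13 was called, where 3.02% and 2.29% of all probe sets were called. PSMA5, an alpha ring subunit, was the only gene of the list that was called. It read 9.89 and 9.28 on the arrays labelled Detroit invasion subline, against 7.83 and 8.15 in the Detroit parent, and rose by 1.59 (adjusted p = 0.031). It was also higher in the Fadu parent, at 9.46 and 9.57, than in the Detroit parent, by 1.52 (adjusted p = 0.046). These calls share the Detroit parent arrays, and the rise on the arrays labelled Detroit invasion subline was lost in 7 of the 12 fits without 1 array, the other in 10. PSMB5 and PSMB6, the constitutive counterparts of PSMB8 and PSMB9, were chosen for naming after their values were seen. PSMB5 gave -0.74 and PSMB6 -0.84 for OECM1 over Detroit, and neither passed.

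Of 24 listed regulators of class I transcription, 21 were measured and 20 tested. Only 1 was called, in OECM1 over Fadu, where 2.43% of all probe sets were called. IRF9, the DNA-binding subunit of the interferon-activated complex ISGF3, read 5.41 and 5.14 on the OECM1 parent arrays, against 8.45 and 7.11 on the Fadu parent arrays. It fell by 2.50 (a log2 fold change of -2.50, adjusted p = 0.0168). Without Fadu parent replicate 1 the value was -1.83 (adjusted p = 0.174), and the call was also lost without either OECM1 parent array. Over the Detroit parent, at 7.42 and 6.51, the difference of -1.69 did not pass (adjusted p = 0.0768).

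Of 11 other class I and natural killer ligand genes, 9 were measured and 7 tested, with 0 called by limma in any of the 7 comparisons between 2 groups and at most 3 at an unadjusted p under 0.05. Of 12 MHC class II genes, all were measured and 6 tested. For OECM1 over Detroit 1 of the 6 was called, where 3.29% of all probe sets were called. HLA-DRA, the invariant alpha chain of HLA-DR, read 4.11 and 4.39 by 210982_s_at on the OECM1 parent arrays, against 6.75 and 5.41 on the Detroit parent arrays. It fell by 1.83 (a log2 fold change of -1.83, adjusted p = 0.0317), and without Detroit parent replicate 1 the value was -1.16 (adjusted p = 0.166). Its second probe set, 208894_at, was called for the same comparison at -2.24 (adjusted p = 0.0369) and for Detroit as labelled at -2.47 (adjusted p = 0.0248). By 210982_s_at the difference for Detroit as labelled, -1.57, did not pass (adjusted p = 0.0621). HLA-DRA is also a gene of leukocytes, and the leukocyte marker sums were 53.8 and 57.5 on the OECM1 parent arrays, against 58.3 and 57.0 on the Detroit parent arrays. Their part in the HLA-DRA values was not tested.

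The genes whose pattern over the 12 arrays was most like that of the 10 genes, by Pearson correlation with the mean z score of their brightest probe sets among 8982 other genes, were HLA-J (r = 0.931), REEP5 (0.922), GGCT (0.875), PLBD1 (0.859), RMDN3 (0.832) and ERAP2 (0.831). HLA-J is a class I pseudogene whose probe set, 217436_x_at, carries the suffix for shared probes. The mean z score itself was 0.98 and -0.15 on the Detroit parent arrays and -0.31 and -1.55 on the OECM1 parent arrays, so the gap between duplicates is part of the pattern that was matched.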

How the data were processed

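Total RNA of the 12 samples was taken up in Trizol and read on Affymetrix arrays after biotin labelling, per the labels. The deposited values were log2 expression values of 22283 probe sets, made by the authors with RMA and Partek 7, per the submitters' processing notes, and no value was missing. The 68 control probe sets were left out. Of the rest, 19065 had 1 gene symbol, 1043 several and 2107 none, and 0 of those with several held 1 of the 10 genes. There were 0 unused columns of values, and no genome build was given in the sources used here.

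With 1 mean per group (6 in all), a linear model was fitted with limma 3.58.1 in R 4.3.3 (empirical Bayes with an intensity trend) to the 15124 probe sets with at least 2 arrays above 4.52, so that the groups shared 1 estimate of the spread. Adjustment of p-values (Benjamini-Hochberg) ran over all 15124, with a threshold of 0.05. The steps were tested on simulated data. The number of arrays limits the precision. Alternatives covered the filter, the trend, array weights, median centring, ACTB as a covariate, 1 probe set per gene, single lines, a replicate block and each array left out.

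The genes, lists and rules were chosen with earlier results of these data known. Named were all 23 probe sets, the called genes of each list (up to 4 per comparison) and the 6 genes most alike in pattern. Same-numbered duplicates were not paired: their deviations correlated at -0.168, -0.409 and -0.405 in Detroit, Fadu and OECM1.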

Additional observations from a re-analysis of the deposited data

Results flagged for a closer look

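PSMB9 had differences of opposite sign between invasion subline and parent in 2 lines, without overlap of the arrays in either. Only the Detroit difference was called. Its log2 fold change was -1.82 for Detroit as labelled, where both subline arrays (5.80 and 4.98) lay below both parent arrays (7.17 and 7.25). In OECM1 it was 0.60, where both subline arrays (4.93 and 5.68) lay above both parent arrays (4.69 and 4.72). The difference between these 2 lines was not tested on its own. The F test of a difference between the 3 lines gave an unadjusted p of 0.00197 and did not pass after adjustment over all probe sets in limma (adjusted p = 0.151).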

How the results depend on the processing

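No called fold change reversed its direction under the alternatives run, but the median of the 21 probe sets changed sign in each line when 1 parent array was left out: -0.02 in OECM1 (0.56 with all arrays), 0.03 in Fadu (-0.18) and 0.14 for Detroit as labelled (-0.34). For Detroit as labelled, the count of called probe sets of 21 went to 0 with array weights, with the replicate block and with only the 4 Detroit arrays, and ran from 0 to 3 when 1 array was left out, with 3 without Detroit invasion subline replicate 1. For OECM1 over the Detroit parent it was 0 with the replicate block and 1 to 5 without 1 array. For OECM1 over the Fadu parent it was 0 with the replicate block, 5 with the ACTB ratio as a covariate and 1 to 4 without 1 array. For the arrays labelled Detroit invasion subline over the Fadu parent, and for the F test between the 3 lines, it ran from 0 to 1 without 1 array, with 1 in each without Detroit invasion subline replicate 1. The other comparisons kept 0 throughout.

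The sources used here do not tell what the numbers of the duplicates stand for. Whether calls lost under the replicate block reflect a difference shared by same-numbered arrays was not tested. PSMB9 for OECM1 had adjusted p-values of 0.0583 over Detroit and 0.0761 over Fadu with the block, and passed under all other alternatives. With the duplicate numbers crossed, chosen after seeing the data, 1 probe set was called for Detroit as labelled, 3 for OECM1 over Detroit and 2 for OECM1 over Fadu. Over all probe sets, the count called for Detroit as labelled, 457, ran from 174 to 1366 without 1 array and from 44 to 749 under the other settings. For the OECM1 and Fadu sublines it stayed at most 6 and 5. The 2 arrays a group limit the precision to the 95% intervals given. Where a group was left with 1 array, that array was assumed to vary like the others.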
